A study of Mus musculus with 23 samples.

Results

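The comparison described here is that of bone marrow-derived macrophages labelled Stk40 KO and WT at the time label T6 of an exposure to lipopolysaccharide (LPS). It was chosen by group label: the 3 libraries of KO_T6 and the 3 libraries of WT_T6, which are 6 of the 23 libraries in the series. RNA was measured by sequencing of polyadenylated RNA, and the question is which transcripts differ with the Stk40 label once macrophages have met LPS. The other 17 libraries came from the same genotypes at T0 (untreated), T16 and T32 (LPS), with 3 per group but only 2 for WT at T16. The sources used here give no unit for T, nor the strain, sex and age of the mice or the way Stk40 was disrupted, and both groups had the same LPS label.

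Stk40 encodes a pseudokinase related to the Tribbles proteins, which bind the ubiquitin ligase COP1. COP1 marks transcription factors such as C/EBP, JUN and ETS family members for degradation. LPS, a part of the outer membrane of Gram-negative bacteria, is sensed through Toll-like receptor 4 and starts the NF-kB and interferon programmes of macrophages, which bring in cytokines, chemokines and nitric oxide synthase and shift metabolism towards glycolysis.

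Of 52636 genes in the count table, 15782 were expressed enough to be tested, and 47 of them differed between the genotypes at T6, which is 0.298% of the genes tested. In libraries labelled KO 33 genes rose (0.209%) and 14 fell (0.0887%). A gene passed when edgeR's quasi-likelihood test gave it a p under 0.05 after Benjamini-Hochberg adjustment across the whole table, with 1 mean per genotype and time label fitted to all 23 libraries. The median log2 fold change over all genes was −0.01, and 1492 genes (9.45%) had an unadjusted p under 0.05. Genes that rose included the arginase gene Arg2, the growth factor gene Pgf, podoplanin (Pdpn), Sca-1 (Ly6a), the interleukin-17 receptor gene Il17ra and Stat3, and genes that fell included the potassium channel gene Kcnk13, Nfatc2, Tfeb and Nqo1. Of the 47, 44 are protein-coding, 2 are long intergenic RNAs and 1 is an antisense RNA.

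The number of genes passing depended on how the spread was estimated. When the replicate number was added as a block within each time label, 72 genes passed (0.456% of genes), with 50 higher (0.317%) and 22 lower (0.139%), and 34 of the 47 were among them. The 22 lower genes included 4 Y-linked genes (Kdm5d, Uty, Ddx3y and Eif2s3y). Y-linked transcripts were at 87.6 CPM in WT replicate 1 and at 0 to 0.0308 CPM in the other T6 libraries. DESeq2 on all libraries passed 265 genes (195 higher and 70 lower), 46 of the 47 among them. Scaling by library totals in place of TMM passed 122, of which 16 were higher and 106 lower, and the median of all genes was then −0.193. A fit to the 6 T6 libraries alone passed 0 genes in edgeR (722 at an unadjusted p under 0.05) and 0 in limma-voom, against 110 in DESeq2. The same 6 libraries with the replicate block passed 985 of 13061 genes (7.54%), of which 708 were higher (5.42%) and 277 lower (2.12%), including 46 of the 46 genes tested there. The common biological coefficient of variation, the relative spread of a gene between replicates beyond counting error, was 0.217 in the fit to all libraries, 0.269 in the T6 libraries and 0.108 in the T6 libraries after blocking. In the last fit the spread rests on 2 residual degrees of freedom. Without KO replicate 3, 15 genes passed, and without WT replicate 1, 18 did. Without WT replicate 3, 46 passed, but 17 were higher and 29 lower. In each of these settings every one of the 47 genes that could be tested kept its direction. The 9 genes Arg2, Pgf, Dpy19l3, Pdpn, Elk3, Arhgap26, Kcnk13, Nfatc2 and Snx24, passed in 18 of 20 settings and failed in edgeR and limma-voom on the T6 libraries alone.

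**Figure D1:**
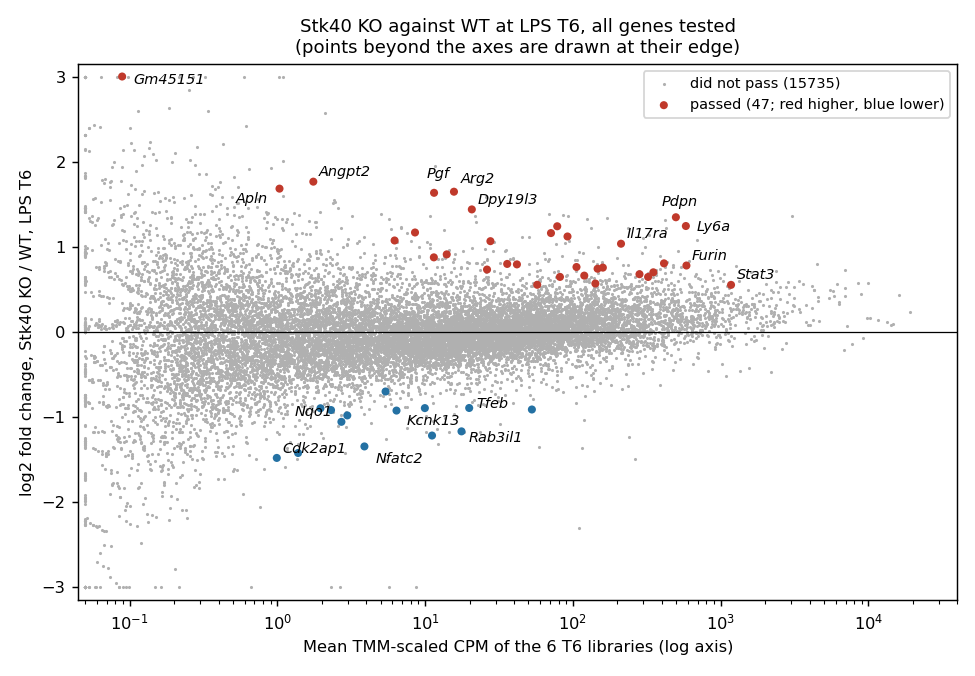
Log2 fold change of KO over WT at T6 (vertical axis) against the mean level over the 6 T6 libraries in TMM-scaled CPM (horizontal log axis), 1 point per gene tested. The 33 genes that rose (red) and the 14 that fell (blue) lie among the other genes tested, whose median is near 0.

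Depth at T6 was 19455080 to 39778253 counts per library. The cells carried macrophage RNA in both groups, with Lyz2 at 13900 ± 2730 CPM (counts scaled to library size and TMM factor) in KO and 12800 ± 4230 CPM in WT libraries, and Csf1r at 1550 ± 448 and 1650 ± 339 CPM (SD, n = 3 each). None of 25 macrophage identity genes passed in edgeR, with 4 at an unadjusted p under 0.05, while DESeq2 passed Cd14. Replicate 2 of KO and replicate 2 of WT stood apart from the other T6 libraries: Saa3 was their most abundant gene, at 24100 CPM in the KO and 22900 CPM in the WT library against 6340 to 12000 CPM in the other 4, and they had larger shares of mitochondrial counts (0.68% and 1.1%, against 0.35% to 0.47%). Without both, 25 genes passed, 17 of them among the 47. WT replicate 1 carried Y-linked transcripts and nearly no Xist RNA (0.467 CPM), whereas the other 5 libraries had Xist at 408 to 586 CPM, so 1 WT culture differed in sex from the rest. A WT library at T0, T16 and T32 also carried Y-linked transcripts (143, 42.8 and 116 CPM). No KO library had more than 0.0781 CPM, so sex was not balanced between the genotypes at any time label. With sex as a covariate 98 genes passed, all 47 included. Markers of neutrophils and their precursors summed to 640 to 792 CPM in KO and 354 to 592 CPM in WT libraries, without overlap. Their median log2 difference was 0.34 and 12 of 15 were positive, with Ngp at 201 ± 46.4 and 114 ± 29 CPM and Ly6g at 0.194 and 0.0827 CPM. None of the 15 passed in edgeR (5 at an unadjusted p under 0.05) or limma-voom. DESeq2 passed Retnlg and Ltf, and the fit with the sex covariate passed Retnlg, Ngp and Ltf. In the T6 libraries with the replicate block these 3 and Mmp8 rose, against 5.42% of all genes there. Sums for T, B and NK cell markers (12.9 to 23.4 CPM in KO, 14.7 to 22.5 CPM in WT) and for mast cell and basophil markers (4.09 to 7.23 and 2.27 to 4.38 CPM) were low and overlapped. Those of erythroid, stromal and dendritic cell markers overlapped as well. The part of other cells in the genotype differences was not tested, and in bulk RNA fewer cells of a type and less RNA per cell cannot be told apart.

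The targeted gene was not lower in libraries labelled KO. Stk40 (ENSMUSG00000042608, chr4:126103957-126141029 in GRCm38) had 388, 354 and 385 CPM in KO libraries, against 322, 335 and 281 CPM in WT libraries. Every KO library was above every WT library, but the log2 difference of 0.27 ± 0.15 (SE) did not pass (edgeR adjusted p = 0.64, and 0.17 in the T6 libraries with the replicate block). Gene-level counts do not show whether an exon is missing, so the genotype rests on the labels. Cop1, listed under its older symbol Rfwd2, averaged 14.4 ± 2.31 CPM in KO and 19.1 ± 3.97 CPM in WT libraries (log2 difference −0.41 ± 0.16, edgeR adjusted p = 0.38). In the T6 libraries with the replicate block it passed (edgeR adjusted p = 0.0497).

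Genes of 3 secreted ligands rose. Pgf (ENSMUSG00000004791, chr12:85166635-85177790), whose product placental growth factor is a VEGF family ligand of the receptor FLT1, had 19.1, 17.4 and 15.6 CPM in KO libraries, against 5.1, 6.09 and 5.62 CPM in WT libraries. Angpt2, a ligand of the TIE2 receptor, had 2.13, 3 and 3 CPM against 0.8, 0.698 and 0.869 CPM in WT. Apln, which encodes the peptide apelin, had 1.46, 1.77 and 1.46 CPM against 0.267, 0.635 and 0.613 CPM in WT. In all 3 genes the lowest KO library lay well above the highest WT library, and the 2 last are near the lower end of detection. The log2 fold changes were 1.63 ± 0.24 for Pgf, 1.76 ± 0.29 for Angpt2 and 1.68 ± 0.29 for Apln (edgeR adjusted p = 0.0034, 0.0085 and 0.01). The Angpt2 gene overlaps Mcph1 on the other strand (0.30 ± 0.23, not passing), and the library kit does not mark strand.

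Surface receptors and membrane proteins rose as well. Pdpn (chr4:143267431-143299564), which encodes podoplanin, the ligand of the platelet receptor CLEC-2, had 656, 735 and 751 CPM in KO libraries, against 291, 301 and 250 CPM in WT libraries. Ly6a (chr15:74994877-74998031), a GPI-anchored protein known as Sca-1, had 750, 1040 and 661 CPM against 353, 420 and 262 CPM in WT. Il17ra (chr6:120463247-120487559), the shared subunit of interleukin-17 receptors, had 225, 351 and 277 CPM against 120, 185 and 111 CPM in WT. The groups did not overlap for these genes, and for Ly6a and Il17ra the replicate 2 library was the highest of both genotypes. Pdpn rose by 1.35 ± 0.19, Ly6a by 1.24 ± 0.24 and Il17ra by 1.04 ± 0.17 on the log2 scale (edgeR adjusted p = 0.0019, 0.027 and 0.0076). Treml2 (chr17:48299498-48312533), a TREM-like receptor, had 122, 131 and 125 CPM in KO libraries, against 69.6, 58.1 and 45.8 CPM in WT libraries, a rise of 1.12 ± 0.23 (edgeR adjusted p = 0.0451). Mcoln2, a cation channel of endosomes and lysosomes, and Ezr (ezrin), which ties the membrane to actin, rose by 0.68 ± 0.13 and 0.81 ± 0.16. Per length, in the authors' normalized RPKM, Ly6a reached 767 in KO and 316 in WT and Pdpn 370 and 142, the highest levels among the 47 genes in KO libraries.

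**Figure D2:**
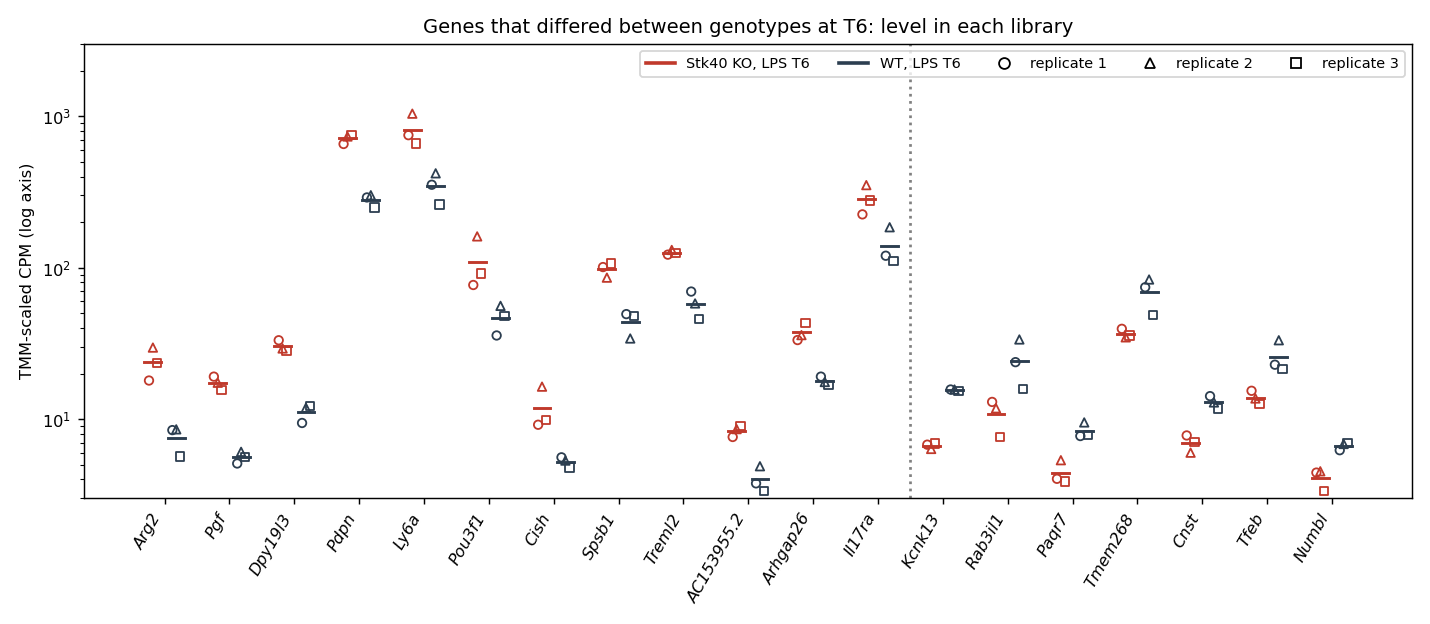
Level of 19 genes that passed at T6 in each of the 6 libraries (TMM-scaled CPM, log axis; KO red and to the left, WT dark; bars are means, symbols give the replicate number). To the left of the dotted line are genes that rose, where the lowest KO library exceeds the highest WT library, and to the right genes that fell, where the highest KO library is under the lowest WT library.

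Enzymes that rose were led by Arg2 (chr12:79130777-79156301), the mitochondrial arginase, which splits arginine into ornithine and urea. It had 18, 29.7 and 23.5 CPM in KO libraries, against 8.47, 8.57 and 5.67 CPM in WT libraries. Dpy19l3 (chr7:35685165-35754454), a C-mannosyltransferase of the endoplasmic reticulum, had 33.2, 29.3 and 28.1 CPM against 9.44, 11.9 and 12.2 CPM in WT. All KO libraries were at more than the highest WT value of either gene. Arg2 rose by 1.65 ± 0.26 and Dpy19l3 by 1.44 ± 0.17 (edgeR adjusted p = 0.0061 and 0.00028). Furin, a proprotein convertase, had 767, 644 and 812 CPM in KO libraries, against 500, 334 and 460 CPM in WT libraries (0.78 ± 0.14, edgeR adjusted p = 0.012). Hk2, the hexokinase that LPS raises in macrophages, had 165, 169 and 174 CPM against 116, 125 and 102 CPM in WT, without overlap. It rose by 0.57 ± 0.12 (edgeR adjusted p = 0.0466, and 0.066 with the replicate block). Also higher were Fam46a, a non-canonical poly(A) polymerase (0.65 ± 0.14), the cofilin phosphatase gene Ssh2 (0.91 ± 0.18) and the ERK phosphatase gene Dusp7 (0.55 ± 0.11).

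Among regulators of signalling, Stat3, the transcription factor of interleukin-6 and interleukin-10 receptors, had 1350, 1390 and 1450 CPM in KO libraries, against 1020, 927 and 909 CPM in WT libraries. Cish, a SOCS family inhibitor of cytokine receptor signalling, had 9.19, 16.4 and 9.87 CPM against 5.6, 5.33 and 4.8 CPM in WT. Spsb1 (chr4:149896283-149955043), a SOCS-box adaptor that directs inducible nitric oxide synthase to degradation, had 101, 86 and 107 CPM against 49.4, 34.1 and 48.1 CPM in WT. The WT libraries lay close together for Stat3 and Cish and below the KO libraries in all 3 genes. Stat3 rose by 0.55 ± 0.11, Cish by 1.17 ± 0.24 and Spsb1 by 1.16 ± 0.24 (edgeR adjusted p = 0.027, 0.0451 and 0.0451). With the replicate block Stat3 and Cish missed the threshold (edgeR adjusted p = 0.067 and 0.055). Stat3 overlaps Stat5a on the opposite strand, which stood at 276 CPM in KO and 177 CPM in WT libraries (0.64 ± 0.14, edgeR adjusted p = 0.066), and the reads of the overlap cannot be assigned to a strand. Rcan1, an inhibitor of calcineurin, rose by 0.65 ± 0.12 and Pdlim2, which promotes the breakdown of nuclear NF-kB, by 0.80 ± 0.15 (edgeR adjusted p = 0.029 and 0.018).

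Transcription factor genes moved in both directions. Pou3f1 (chr4:124656807-124660655), a POU-domain factor, had 76.9, 161 and 91.7 CPM in KO libraries, against 35.7, 56 and 48 CPM in WT libraries. Jdp2, a repressor that pairs with AP-1 proteins, had 217, 199 and 185 CPM against 116, 113 and 127 CPM in WT. Elk3, an ETS family factor, had 55.9, 46.7 and 56.4 CPM against 29.6, 31 and 31.1 CPM in WT. KO replicate 2 was the highest library for Pou3f1, while Jdp2 and Elk3 varied little within a genotype. The rise was 1.24 ± 0.26 for Pou3f1, 0.76 ± 0.14 for Jdp2 and 0.79 ± 0.12 for Elk3 (edgeR adjusted p = 0.0466, 0.015 and 0.0049). Zfp324, a zinc finger gene, rose by 0.88 ± 0.15 (edgeR adjusted p = 0.01). Nfatc2 (chr2:168476410-168601657), a factor that calcineurin activates, had 2.22, 2.59 and 1.82 CPM in KO libraries, against 6.7, 5.46 and 4.5 CPM in WT libraries. Tfeb (chr17:47737030-47792419), a regulator of lysosome genes, had 15.4, 13.7 and 12.6 CPM against 22.9, 33.2 and 21.4 CPM in WT. Both were under the lowest WT library in every KO library. Nfatc2 fell by 1.34 ± 0.19 and Tfeb fell by 0.89 ± 0.18 (edgeR adjusted p = 0.0019 and 0.034). In limma-voom Tfeb did not pass.

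Kcnk13 (ENSMUSG00000045404, chr12:99964499-100062682), which encodes the potassium channel THIK-1, had the smallest adjusted p at T6 of all genes. Its level was 6.79, 6.36 and 6.91 CPM in KO libraries, against 15.7, 15.7 and 15.3 CPM in WT libraries. Each genotype was nearly constant, replicate 2 included, and the groups were far apart. The gene fell by 1.22 ± 0.13 (edgeR adjusted p = 8.9e-05).

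Rab3il1 (chr19:10001669-10038380), an exchange factor of Rab GTPases and another gene that fell, had 13, 11.8 and 7.64 CPM in KO libraries, against 23.8, 33.6 and 15.8 CPM in WT libraries. Tmem268 (chr4:63558781-63586357), a transmembrane protein gene, had 39.5, 34.7 and 35.7 CPM against 74.3, 83.6 and 48.8 CPM in WT. Paqr7 (chr4:134496697-134510235), a membrane progestin receptor, had 4.04, 5.36 and 3.87 CPM against 7.74, 9.52 and 7.87 CPM in WT. WT libraries spread widely for Rab3il1 and Tmem268, with replicate 3 nearest to the KO libraries, but the groups did not overlap. The log2 decreases were −1.17 ± 0.23, −0.91 ± 0.16 and −0.92 ± 0.15 (edgeR adjusted p = 0.034, 0.013 and 0.006), and Rab3il1 did not pass in limma-voom. Cnst (chr1:179546370-179627478), which encodes consortin, had 7.81, 6.01 and 7.05 CPM in KO libraries, against 14.2, 12.9 and 11.8 CPM in WT libraries. Nqo1 (chr8:107388225-107403206), the NRF2-controlled quinone reductase, had 1.55, 1.88 and 1.86 CPM against 4.1, 3.24 and 3.63 CPM in WT. Cnst fell by 0.89 ± 0.15 and Nqo1 fell by 1.06 ± 0.18 (edgeR adjusted p = 0.011 and 0.0098), and no KO library of either gene reached a WT library. Snx24, a sorting nexin, fell by 0.98 ± 0.13, and Acad12, of the acyl-CoA dehydrogenase family, fell by 0.92 ± 0.18. The NUMB homologue Numbl had 4.44, 4.53 and 3.37 CPM in KO libraries, against 6.24, 6.86 and 6.95 CPM in WT libraries, without overlap. Tmem120b fell by 0.90 ± 0.19 and Numbl fell by 0.70 ± 0.15 (edgeR adjusted p = 0.0466 and 0.048). Those 2 genes, with Cdk2ap1 (−1.48 ± 0.29) and the antisense RNA Gm36266 (−1.42 ± 0.29), missed the threshold with the replicate block, at edgeR adjusted p = 0.058 to 0.097.

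Among the remaining genes that rose, Arhgap26, a RhoGAP, had 33.3, 35.9 and 43.1 CPM in KO libraries, against 19.1, 17.6 and 16.8 CPM in WT libraries. The long intergenic RNA AC153955.2 had 7.63, 8.6 and 9.01 CPM against 3.77, 4.89 and 3.37 CPM in WT. In both the libraries of a genotype lay close together, and the groups were apart. Arhgap26 rose by 1.07 ± 0.16, Stard8, also a RhoGAP, by 0.66 ± 0.10 and Mapkbp1, a scaffold of JNK signalling, by 0.74 ± 0.12 (edgeR adjusted p = 0.0034, 0.0032 and 0.0076). Marf1 (0.70 ± 0.14), Tbc1d9 (0.76 ± 0.15), Fam133b (0.73 ± 0.15) and AC153955.2 (1.07 ± 0.21) were at edgeR adjusted p = 0.033 to 0.043. The last 3 missed the threshold with the replicate block, as did Fam46a and Dusp7 (edgeR adjusted p = 0.0506 to 0.058). The long intergenic RNA Gm45151 had 6, 3 and 2 counts in KO libraries and 0 counts in all WT libraries. Set against a floor of 3 counts over the WT group, this is at least 3.89-fold higher in KO, and it rests on 11 counts in all (edgeR adjusted p = 0.0497, and 0.094 with the replicate block). In all, 17 of the 47 genes overlap another tested gene. None of those neighbours passed. The libraries of the genotypes did not overlap in any of the 47 genes. Over all genes tested, every KO library was above every WT library in 5.96% and below in 5.08%.

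The genes differed in whether the same difference also passed at the other time labels. Of the 33 genes that rose at T6, 8 were also higher in KO at T0, where 1.83% of all genes were, 22 at T16 (4.16%) and 15 at T32 (3.05%). Of the 14 genes that fell, 1 (Nqo1) was also lower at T0, 1 (Paqr7) at T16 and 3 (Rab3il1, Nfatc2 and Paqr7) at T32, against 0.114%, 3.48% and 3.34% of all genes. Dpy19l3, Ly6a, Pou3f1, Angpt2, Mcoln2, Fam46a and AC153955.2 were higher in KO at all 4 time labels. Dpy19l3 differed by 1.37 ± 0.17 at T0, 2.02 ± 0.19 at T16 and 1.83 ± 0.16 at T32. Arg2 had 0.05 ± 0.29 at T0, 1.98 ± 0.31 at T16 and 1.54 ± 0.26 at T32. For Pdpn the differences were 0.61 ± 0.19, 1.84 ± 0.22 and 2.48 ± 0.19, of which the first did not pass. In 20 genes, 10 of each direction, no difference in the same direction passed at another time label. A difference that did not pass is not shown to be absent. The comparisons at the other time labels were made without sex as a covariate. Those at T16 rest on 2 WT libraries, with Y-linked transcripts at 0.0611 and 42.8 CPM.

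**Figure D3:**
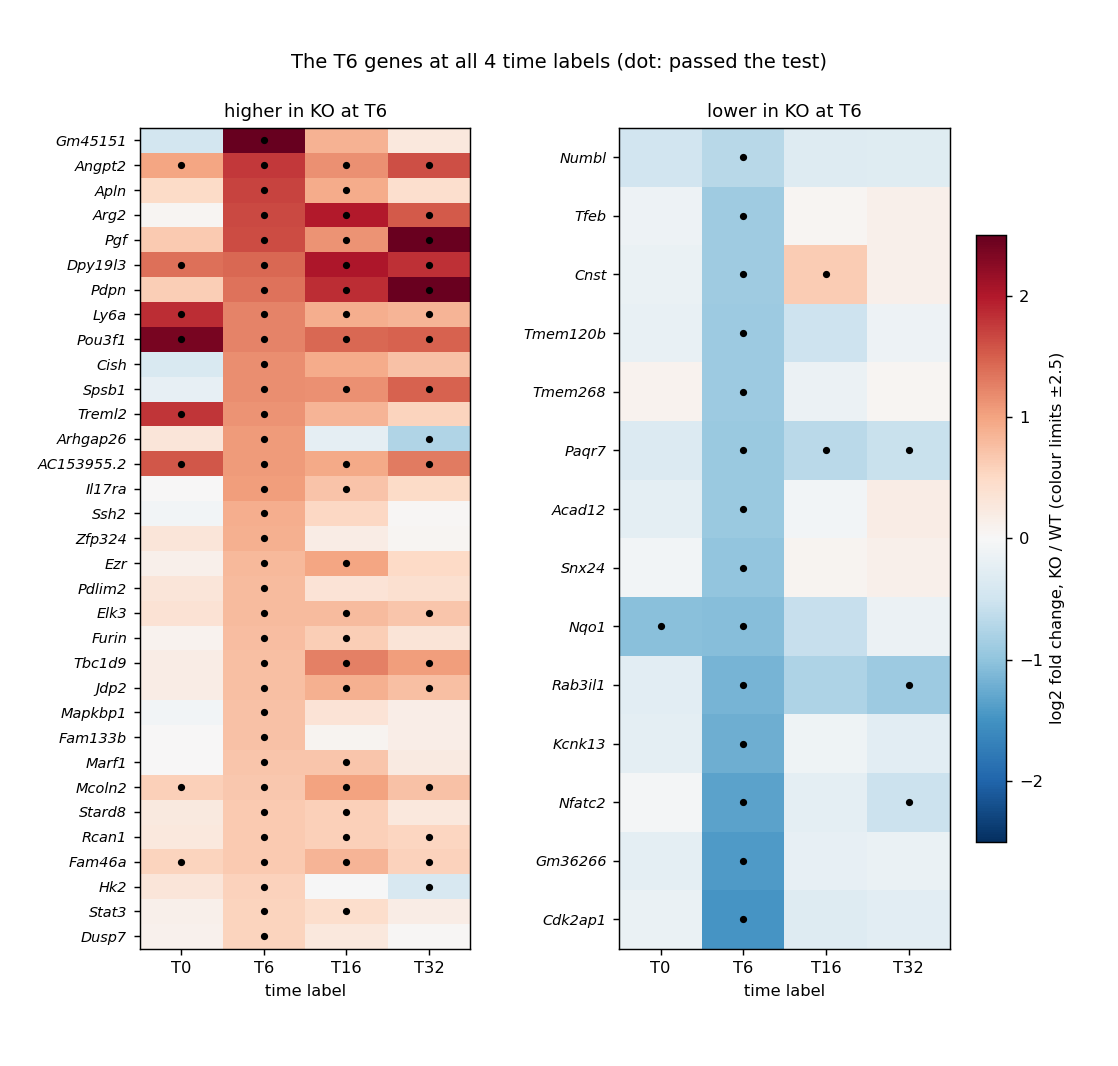
Log2 fold change of KO over WT for the 47 genes at T0, T6, T16 and T32 (columns; colour limits at ±2.5, red higher and blue lower in KO; a dot marks a gene that passed at that time). Of the 33 genes that rose at T6, 22 also passed at T16, whereas of the 14 that fell 1 passed in the same direction.

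For 6 of the 47 genes the difference at T6 was itself different from that at another time label, by an interaction term in the same edgeR fit. Kcnk13, lower at T6, differed by −0.24 ± 0.12 at T0, −0.11 ± 0.13 at T16 and −0.27 ± 0.12 at T32, and its T6 difference was below each of these (edgeR adjusted p = 0.032, 0.025 and 0.015). Snx24 likewise differed from all 3, with −0.07 ± 0.11, 0.07 ± 0.12 and 0.13 ± 0.11 at T0, T16 and T32. Nfatc2 differed from T0 (−0.04 ± 0.16). Cnst was higher in KO at T16 (0.63 ± 0.17, edgeR adjusted p = 0.027), against its fall at T6. Its T16 level was 26.3 ± 0.289 CPM in KO libraries and 17 ± 6.03 CPM in the 2 WT libraries, which differed widely. Hk2 and Arhgap26 turned round by T32, where they were lower in KO by −0.40 ± 0.12 and −0.75 ± 0.17 (edgeR adjusted p = 0.0492 and 0.0096). Over all genes, 16 (0.101%), 7 (0.0444%) and 42 (0.266%) differed in this way between T6 and T0, T16 and T32.

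The LPS response of the same genes in WT cells shares the WT T6 libraries with the genotype comparison and is given as a description. From T0 to T6 in WT, 25 of the 33 genes higher in KO rose (27.3% of all genes did) and 5 fell. Of the 14 lower in KO, 12 fell (31.9% of all genes) and Tmem268 rose. In WT cells the log2 change was 3.71 for Pdpn, 2.18 for Arg2 and −1.46 for Kcnk13. In KO cells, over the KO T6 libraries, it was 4.44 for Pdpn, 3.78 for Arg2 and −2.43 for Kcnk13.

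Promoters are shown for Pgf and Kcnk13, which rose and fell with little spread between libraries and lie on the same chromosome. They are the 300 bases from 250 before to 50 after the start in RefSeq on GRCm38.p6, 5′ to 3′ on the gene's strand, at chr12:85177264-85177563 (minus strand) for Pgf and chr12:99964249-99964548 (plus strand) for Kcnk13. The first start listed was used for each gene, here and in the shares below. Pgf has 2 starts listed, and the other is not shown. Capitals mark the motifs found on either strand: in Pgf the antioxidant response element TGACNNNGC, read on the other strand, and 3 copies of the NF-kB form (GGG, then any 5 bases, then CC), and in Kcnk13 the C/EBP form TTNCNNAA.
Pgf: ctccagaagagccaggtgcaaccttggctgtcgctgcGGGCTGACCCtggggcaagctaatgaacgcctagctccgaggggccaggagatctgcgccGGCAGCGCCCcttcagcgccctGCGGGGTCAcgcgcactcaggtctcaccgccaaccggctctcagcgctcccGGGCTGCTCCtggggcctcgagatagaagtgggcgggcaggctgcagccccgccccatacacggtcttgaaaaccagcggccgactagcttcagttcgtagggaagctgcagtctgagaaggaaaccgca
Kcnk13: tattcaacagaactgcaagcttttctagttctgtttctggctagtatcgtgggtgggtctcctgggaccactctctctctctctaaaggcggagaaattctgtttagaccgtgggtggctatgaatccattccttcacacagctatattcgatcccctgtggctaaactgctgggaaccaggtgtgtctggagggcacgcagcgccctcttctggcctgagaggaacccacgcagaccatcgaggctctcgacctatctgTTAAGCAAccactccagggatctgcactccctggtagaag
RefSeq promoters were matched for 35 of the 47 genes and for 10571 of the genes tested. The C/EBP form was found in 4 of 22 promoters of genes that rose (18.2%) and 6 of 13 of genes that fell (46.2%), against 31.8% of all. The NF-kB form was found in 77.3% and 69.2%, against 67.1% of all, and the antioxidant response element in 18.2% and 15.4%, against 14.9%. The AP-1 form TGANTCA was found in 4.5% and 0 promoters, against 5.4%, and the E-box CACGTG in 13.6% and 7.7%, against 10%. A match of letters is not a binding site, and these shares are given without a test.

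The COP1 pathway and its substrates showed no gene that passed. Of 11 genes of the ligase and the Tribbles family 2 had an unadjusted p under 0.05, and the median log2 difference was −0.09. Trib3, a Tribbles gene of the stress response, was at 7.49 ± 3.49 CPM in KO and 16.4 ± 2.26 CPM in WT libraries (−1.14 ± 0.30, edgeR adjusted p = 0.12). It passed with the replicate block, with library totals and in DESeq2. Trib1, which directs C/EBP factors to COP1, was at 66.2 ± 3.87 and 90.9 ± 34.7 CPM (edgeR adjusted p = 0.54). Of 9 substrate genes 0 passed in edgeR, limma-voom and DESeq2, and 3 had an unadjusted p under 0.05. The ETS factor gene Etv5 fell in the T6 libraries with the replicate block. Cebpb had 226, 547 and 247 CPM in KO libraries, against 322, 571 and 246 CPM in WT libraries, and the replicate 2 libraries were the highest of both groups. Cebpd averaged 149 ± 65.9 and 203 ± 100 CPM, Jun 153 ± 24 and 163 ± 13 CPM, and Ets2 204 ± 22.8 and 187 ± 20.7 CPM in KO and WT libraries (edgeR adjusted p = 0.82 to 0.95). RNA levels do not report the amount of these proteins.

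Inflammatory cytokine and chemokine genes had mostly positive differences, and none passed in the fit to all libraries. Of 24 inflammatory cytokine genes 0 passed in edgeR, with 9 at an unadjusted p under 0.05, and 23 were positive with a median of 0.56. DESeq2 passed Il19 and Il1a, limma-voom Il19, and the replicate block Il12b, Il19, Il1a and Tnfsf15. In the T6 libraries with the replicate block 12 rose, where 5.42% of all genes did. Il1a was at 600 ± 187 CPM in KO and 242 ± 26.1 CPM in WT libraries, and Il10, which restrains inflammation, at 449 ± 149 and 204 ± 77.6 CPM. Their log2 differences in that fit were 1.27 ± 0.12 and 1.15 ± 0.13 (edgeR adjusted p = 0.00027 and 0.00072), against edgeR adjusted p = 0.16 and 0.32 in the fit to all libraries. Tnf had 1210, 1870 and 1570 CPM in KO libraries, against 1390, 1540 and 1360 CPM in WT libraries, and Il1b 1250, 1050 and 1460 CPM against 1180, 1300 and 865 CPM. Il6 had 76.1, 110 and 105 CPM in KO libraries, against 59.7, 63 and 90.5 CPM in WT libraries. All 3 overlapped between genotypes, with log2 differences of 0.12 ± 0.23, 0.17 ± 0.30 and 0.45 ± 0.31 for Tnf, Il1b and Il6. Il6 was higher in KO in each same-numbered pair and passed in the T6 libraries with the replicate block (edgeR adjusted p = 0.036), while Tnf and Il1b did not (edgeR adjusted p = 0.7 and 0.61). Of 20 chemokine genes 0 passed in edgeR, limma-voom and DESeq2 on all libraries (2 at an unadjusted p under 0.05, median 0.38). In the T6 libraries with the replicate block 7 rose, including Cxcl10 and Ccl7, and Cxcl9 fell by 1.25 ± 0.11 (edgeR adjusted p = 0.00012). Of all genes in that fit, 5.42% rose and 2.12% fell.

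The interferon-response genes had positive differences. All 49 were positive under TMM scaling and 43 under library totals, with a median of 0.33, and they ran from 0.13 to 1.36. The highest was Slfn4, at 4360 ± 702 CPM in KO and 1700 ± 933 CPM in WT libraries (1.36 ± 0.35, edgeR adjusted p = 0.1). None passed in edgeR (10 at an unadjusted p under 0.05) or limma-voom, while DESeq2 passed Slfn4 and Slfn8 and the replicate block on all libraries passed Slfn4. In 46 of the 49 the KO library exceeded the WT library in all 3 replicate pairs (93.9%, against 19.7% of all genes tested). The T6 libraries with the replicate block passed 22, all higher, where 5.42% of all genes passed as higher. Ifit1 had 4930, 3970 and 5860 CPM in KO libraries, against 3520, 2740 and 3900 CPM in WT libraries, without overlap (0.54 ± 0.23, edgeR adjusted p = 0.44, and 0.01 in the T6 libraries with the block). At T0 42 of the 49 were higher in KO (1.83% of all genes were), with a median of 1.41. For Slfn4, Slfn1, Ifi44, Zbp1 and Oasl2 the T6 difference was smaller than that at T0 by an interaction term. Slfn1 differed by 0.59 ± 0.20 at T6 and by 2.96 ± 0.21 at T0 (edgeR adjusted p = 0.0009 for the difference between times). Slfn, Ifit, Oas and Gbp genes have close copies, so their counts are uncertain.

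**Figure D4:**
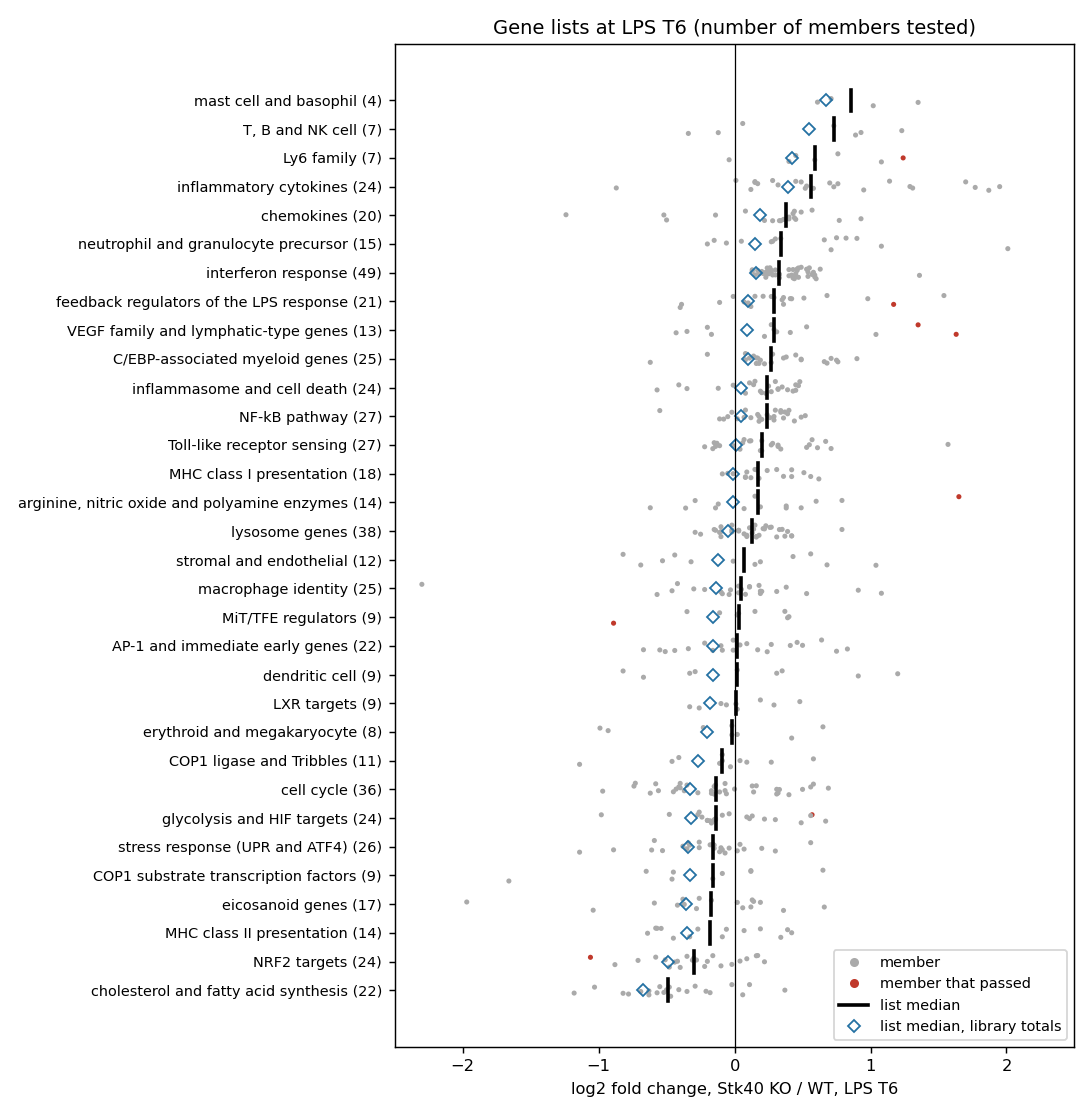
Log2 fold change of KO over WT at T6 for the members of each gene list and of each list of cell type markers other than sex-linked genes (points; red, passed), with the list median under TMM scaling (bar) and under library totals (diamond). All 49 interferon-response genes lie to the right of 0, and 19 of 24 NRF2 targets had negative differences. The lowest NRF2 target, at −4.29, lies beyond the axis and is not drawn.

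Arginine and nitric oxide genes gave 1 gene of 14 that passed, Arg2, and a median of 0.17. The cationic amino acid transporter Slc7a2 was at 605 ± 88.4 CPM in KO and 350 ± 34.8 CPM in WT libraries (0.79 ± 0.24, edgeR adjusted p = 0.2) and passed with the replicate block. Nos2, the inducible nitric oxide synthase, had 5890, 3760 and 5390 CPM in KO libraries, against 3840, 2860 and 3990 CPM in WT libraries. The groups overlap, but KO was above WT in each same-numbered pair (0.49 ± 0.69, edgeR adjusted p = 0.92, and 0.022 in the T6 libraries with the replicate block). Arg1, the cytosolic arginase, was low in both, at 0.694 ± 0.289 and 1.13 ± 0.429 CPM. Of the 13 genes tested in a list of VEGF family and lymphatic-type genes Pgf, a VEGF family ligand, and Pdpn, a lymphatic marker, passed, with a list median of 0.29. The receptor gene Kdr was at 120 ± 41.7 CPM in KO and 57.9 ± 14.1 CPM in WT libraries (1.04 ± 0.34, edgeR adjusted p = 0.24, and 0.00059 in the T6 libraries with the replicate block), and Flt1, the receptor of Pgf, at 9.87 ± 1.18 and 7.42 ± 1.68 CPM. Ly6a was the 1 of 7 Ly6 family genes that passed. Its close relatives Ly6e (4100 ± 118 CPM in KO and 2710 ± 466 CPM in WT) and Ly6c2 (33.2 ± 6.67 and 19.6 ± 3.82 CPM) were at edgeR adjusted p = 0.3 and 0.2, and passed in the T6 libraries with the block.

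Among feedback regulators of the LPS response Cish was the 1 of 21 that passed. Dusp14 and Dusp5, MAP kinase phosphatases, were at 3.61 ± 0.866 and 33.5 ± 8.12 CPM in KO libraries, against 1.21 ± 0.317 and 17 ± 1.94 CPM in WT libraries (edgeR adjusted p = 0.066 and 0.077). Both passed in DESeq2. Of 25 C/EBP-associated myeloid genes 0 passed in edgeR or limma-voom (4 at an unadjusted p under 0.05), 23 were positive and the median was 0.27, against 15 and 0.1 under library totals. In the T6 libraries with the replicate block 8 rose (Ccl3, Mmp8, Nos2, Il6, Lcn2, Ptgs2, Ltf and Csf3), against 5.42% of all genes. DESeq2 and the replicate block on all libraries passed Ltf, at 109 ± 18.4 CPM in KO and 58.7 ± 14.2 CPM in WT libraries. Ltf, S100a8, S100a9, Mmp8, Elane and Camp are also listed as markers of neutrophils and their precursors, whose summed level is given above, and their part in this list was not tested. Acod1, which makes itaconate, had 10900, 8940 and 11000 CPM in KO libraries, against 9610, 8460 and 9440 CPM in WT libraries, and Saa3 10100, 24100 and 9530 CPM against 12000, 22900 and 6340 CPM. Both overlapped between genotypes (edgeR adjusted p = 0.94 and 0.98).

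Of the NF-kB pathway 0 of 27 genes passed in edgeR or limma-voom (8 at an unadjusted p under 0.05, median 0.24), and DESeq2 passed Ikbkb as higher and Map3k14 as lower. The Toll-like receptor list had a median of 0.2 and 0 of 27 passed in edgeR or limma-voom (4 at an unadjusted p under 0.05), with Cd14 passing in DESeq2. AP-1 and immediate early genes had a median of 0.02, with 0 of 22 passing in edgeR (5 at an unadjusted p under 0.05) and Mafk passing in DESeq2. Inflammasome and cell death genes had a median of 0.24 and 0 of 24 passed in edgeR (7 at an unadjusted p under 0.05), against 3 in DESeq2.

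Metabolic and antigen presentation lists gave few genes that passed. Tfeb was the 1 of 9 MiT/TFE regulators that passed, and of 38 lysosome genes 0 passed in edgeR (4 at an unadjusted p under 0.05), with a median of 0.13. The cathepsin gene Ctsl was at 5660 ± 115 CPM in KO and 3270 ± 616 CPM in WT libraries (0.79 ± 0.17, edgeR adjusted p = 0.0501) and passed in DESeq2 and limma-voom. Of 24 NRF2 targets Nqo1 fell, 5 were positive and the median was −0.3. Catalase (Cat) was at 64.6 ± 6.95 and 105 ± 20.7 CPM in KO and WT libraries (−0.71 ± 0.16, edgeR adjusted p = 0.061). In the T6 libraries with the replicate block 7 of the NRF2 targets fell, against 2.12% of all genes. Of 22 cholesterol and fatty acid synthesis genes 0 passed in edgeR or limma-voom (10 at an unadjusted p under 0.05), 3 were positive and the median was −0.49. DESeq2 passed Mvd, at 5.8 ± 1.31 CPM in KO and 11.9 ± 5.19 CPM in WT libraries. Hk2 was the 1 of 24 glycolysis and HIF target genes that passed (median −0.14). MHC class I genes had a median of 0.17 and MHC class II genes of −0.18, and 0 of 18 and 0 of 14 passed in edgeR, limma-voom and DESeq2 on all libraries (5 and 2 at an unadjusted p under 0.05). In the T6 libraries with the replicate block the class I genes H2-Q4, H2-K1, H2-D1 and B2m rose by 0.62, 0.54, 0.51 and 0.44. In that fit the class II genes H2-Aa, H2-Ab1, H2-Eb1 and Cd74 fell by 0.53, 0.62, 0.58 and 0.44. Ctss, a cathepsin of the class II list, rose by 0.42. Of all genes in that fit, 5.42% rose and 2.12% fell. Cell cycle genes (36, median −0.14), stress response genes (26, −0.16), eicosanoid genes (17, −0.17) and LXR targets (9, 0.01) had 0 genes that passed in edgeR, with 6, 6, 3 and 0 at an unadjusted p under 0.05. DESeq2 passed Trib3 among the stress genes and none in the other 3. Under library totals, the medians of the pathway lists moved down with that of all genes. They were then 0.39 for cytokines (18 of 24 positive), 0.19 for chemokines, 0.16 for interferon-response genes, 0.1 for feedback regulators, 0.09 for VEGF family and lymphatic-type genes, 0.05 for the NF-kB and inflammasome lists and 0.01 for the Toll-like receptor list. The sign of the median turned for the MHC class I (−0.01), arginine (−0.01), lysosome (−0.05), AP-1 (−0.16), MiT/TFE (−0.16) and LXR (−0.18) lists, and for the markers of macrophages (−0.14), stromal cells (−0.12) and dendritic cells (−0.16).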

How the data were processed

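PolyA RNA of mouse bone marrow-derived macrophages was sequenced on HiSeq4000 as single-end reads after a TruSeq RNA v2 preparation, per the labels' protocols. Reads were aligned with GSNAP to GRCm38, per the submitters' processing notes. Raw counts per gene and nRPKM (normalized RPKM) were deposited by the authors. Counts of 23 libraries were fitted together with edgeR 4.0.16 (R 4.3.3): 1 mean per genotype and time, TMM scaling, filterByExpr, robust quasi-likelihood, Benjamini-Hochberg adjustment at 0.05 over 15782 genes. CPM are TMM-scaled, and nRPKM only describe levels. SE is the log2 fold change divided by the square root of F. limma 3.58.1 (voom) and DESeq2 1.42.0 were alternatives, with other scalings, filters, covariates and left-out libraries. Coordinates are those of GENCODE M21. Whether each replicate is its own animal or culture is not stated. The WT libraries at T6 were of both sexes, so they were not all from 1 animal. The p-values cover only differences among libraries of the same group, and among libraries of 1 sex these could be technical. In the main fit this spread was pooled over all genotype and time groups of the 23 libraries, and was not that of the T6 libraries alone.

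Every gene that passed was named. Values per library were given for up to 12 of the largest changes each way at a mean of at least 5 CPM without overlap (12 genes that rose and the 7 that fell), for some weaker genes, and for Stk40, Cop1, Trib1, Cebpb, Cebpd, Jun, Ets2, Tnf, Il6, Il1b, Nos2, Acod1, Saa3 and Ifit1. Per-library values of genes outside that rule were chosen with their values known. The members and lists were chosen with earlier results of these data known.

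Same-numbered T6 libraries of KO and WT deviated together from their group means (correlations 0.595, 0.848 and 0.689 over 9284 genes), so the numbers of the deposited sample table were taken as pairs. The correlation was also 0.534 for KO replicate 1 with WT replicate 3 and 0.451 for KO replicate 3 with WT replicate 1. It was −0.59 to −0.763 where only 1 of the libraries was a replicate 2. The pattern thus mainly sets replicate 2 apart, and it hardly tells pairs 1 and 3 from each other. On simulated counts for KO_T6 against WT_T6 (15604 genes), the test found 57% of 100 genes given a 2-fold change and 95% of 100 given a 4-fold change, and called 11 others. The simulated counts were drawn independently for each library and lack the shared deviations of the real ones. These rates may therefore not hold for the real libraries.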

Additional observations from a re-analysis of the deposited data

Results flagged for a closer look

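The genotype difference at T6 itself differed from that at another time label for 6 genes that passed at T6 (edgeR interaction term, Benjamini-Hochberg adjustment over all genes). Values are the KO over WT log2 fold change at T6 minus that at the other time. For Kcnk13 they were −0.98 against T0, −1.1 against T16 and −0.95 against T32. For Snx24 they were −0.91, −1.05 and −1.11 against the same times. For Nfatc2 the value was −1.31 against T0. For Cnst it was −1.52 against T16 and −1.03 against T32. For Hk2 and Arhgap26, lower in KO at T32, it was 0.97 and 1.81 against T32.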

How the results depend on the processing

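All 47 genes kept their direction wherever they were tested. The count of 47 (33 higher, 14 lower) became 122 (16 and 106) with library totals, 29 (19 higher) with no filter, 265 (195 and 70) with DESeq2, 98 (76 and 22) with sex as a covariate, and 25 (17 and 8) without both replicate 2 libraries. limma-voom passed 53, 44 higher and 9 lower. Leaving out 1 library gave 15 to 59 genes, 11 to 37 higher and 4 to 29 lower. The replicate block gave 72 (50 and 22), and with the T6 libraries alone 985 (708 and 277). The T6 libraries alone gave 0 in edgeR (0 higher, 0 lower; 722 at an unadjusted p under 0.05) and 0 in limma-voom (759), but 110 (92 higher) in DESeq2. The replicate block on all libraries lost 13 of the 47. The genes it gained included the list genes named with it above, 4 of them Y-linked, and others not named here. The genes named whether or not they passed still did not pass in it. The cause was not tested. The sign turned for genes that had not passed. With library totals it did so for Acod1 (−0.025), Ets2 (−0.062), Tnf (−0.069), Il1b (−0.021) and Saa3 (−0.085). Leaving out 1 library moved Cebpb between −0.681 (without KO replicate 2) and 0.259 (without WT replicate 2), and it was also positive without KO replicate 1 (0.060) or KO replicate 3 (0.022). Tnf lay between −0.043 (without KO replicate 2) and 0.263, and Saa3 between −0.480 (without KO replicate 2) and 0.673, with −0.006 and −0.259 without WT replicate 1 or WT replicate 3. Genes under 5 CPM, such as Gm45151 with 11 counts, are limited by depth.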
